A study of Sus scrofa with 6 samples.

Results

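Muscle growth is set by signals that hold it back, signals that drive it and the transcription factors that make a cell muscle. The genes described here are MSTN, MYOD1, IGF1 and IGF2, represented by every probe set of the Affymetrix Porcine Genome Array whose platform gene symbol was exactly 1 of these 4. These are 4 of the 6765 genes named on the array. The rule found 20 of 23999 non-control probe sets, of which 2 were for MSTN, 2 for MYOD1, 3 for IGF1 and 13 for IGF2. The tissue was longissimus dorsi, a back muscle that runs along the spine. It was sampled from 3 Large White boars, the control breed of the study, and 3 Northeastern Indigenous boars. All animals were slaughtered at an age of 150 days after being kept on the same feed and in the same surroundings, and each gave 1 array. The labels name neither an agent nor an engineered allele in either breed.

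Myostatin, the product of MSTN, is a ligand of the TGF-beta family that muscle secretes. It binds activin type II receptors, signals through SMAD proteins and limits muscle mass, and cattle lacking it are heavily muscled. MYOD1 is a basic helix-loop-helix transcription factor that binds DNA with an E-protein partner and can turn other cells into muscle cells. IGF1 and IGF2 are insulin-like growth factors that act through the receptor IGF1R and the PI3K and AKT kinases to promote growth. IGF1 is made by the liver, by muscle and by macrophages, among other cells. IGF2 is an imprinted gene expressed from the paternal copy, and in pigs a base change in one of its introns, which removes a binding site of the repressor ZBED6, raises its RNA in muscle. The genotype of these boars at that site is not given in the sources used here.

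The arrays differed in what tissue their RNA resembled, and this has to be known before the genes are read. All values below are quantile-normalized log2 intensities unless stated otherwise, so a difference of 1 is a 2-fold difference in brightness. Of the genes on a sarcomere and Z-disc list, 22 of 29 were measured, and 22 of these 22 were dimmest on Large White replicate 1. Relative to the mean of the other breed their median stood at -3.57 there, at -0.43 on Large White replicate 3 and at 0.0027 on replicate 2. Their summed linear intensity was 86308, 502371 and 406998 on Large White replicates 1, 2 and 3, and between 490654 and 548294 on the Northeastern Indigenous arrays. The muscle filament gene DES read 7.26, 13.23 and 11.59 on the Large White arrays and 12.91 to 13.63 on the others. Of 19 adipocyte genes, 15 were on the array and 12 passed the intensity filter described below. These 12 stood at a median of 3.50 and 2.03 relative to the Northeastern Indigenous mean on Large White replicates 1 and 3. On replicate 2 they stood at -0.067. Their summed intensity ranged from 15463 to 92476 in Large White and from 13957 to 20006 in Northeastern Indigenous boars. The leukocyte list, with 18 of 21 on the array and 15 past the filter, summed to 10321 to 35597 against 3715 to 7692. The fibroblast and matrix list, with 17 of 20 on the array and 16 past the filter, summed to 35021 to 116457 against 19882 to 29903. Of the markers that passed the filter, none was at 0 on any array. Markers under the filter, where a value of 0 was likelier, were not checked. In bulk tissue, fewer cells of a type and less RNA per cell cannot be told apart.

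The breed comparison was fitted with limma across the 14399 probe sets whose mean intensity reached the 40th percentile, and p-values were adjusted by the Benjamini-Hochberg method over all of them. Among the 20 member probe sets, 14 passed this filter and 0 were called at an adjusted p under 0.05, where the percentage of all tested probe sets called was 0. At an unadjusted p under 0.05 there were also 0 of the 14, against 18.8% of all tested probe sets. The breeds did not overlap in 0 of the 14, against 25.1% of all tested probe sets. Adjusted p ran from 0.272 to 0.988 over the 20 probe sets, where those under the filter took their value from a fit with no filter.

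**Figure D1:**
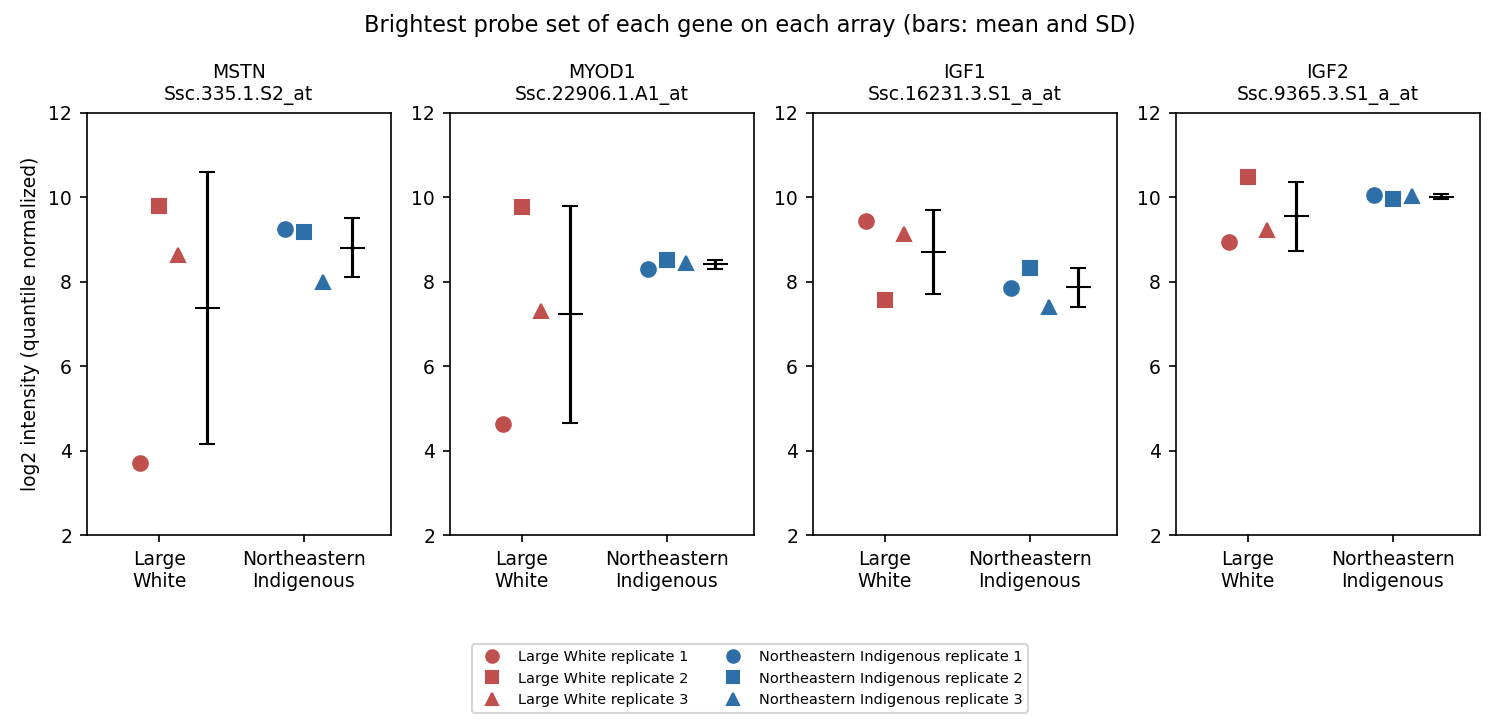
Quantile-normalized log2 intensity (vertical axis) of the brightest probe set of each gene on each of the 6 arrays, with the mean and SD (n = 3) beside each breed. Large White replicate 1 is lowest for MSTN, MYOD1 and IGF2 and highest for IGF1, and the 3 Northeastern Indigenous values of MYOD1 and IGF2 lie close together.

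MSTN, the brake on muscle growth, was spread over a wide range in Large White boars, and the range of the other breed lay inside it. Its brightest probe set, Ssc.335.1.S2_at, read 3.72, 9.79 and 8.64 on Large White replicates 1, 2 and 3. In Northeastern Indigenous boars it read 9.26, 9.17 and 7.998 on replicates 1, 2 and 3. The highest and lowest arrays of all 6 were thus both Large White, 6.07 log2 units apart, which is a 67.1-fold range. On Large White replicate 1 this probe set stood at the 16.8th percentile of all probe sets, with a deposited intensity of 14.2 where the median of that array was 120.1. No detection call was used here, so that value may be a level or background.

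The second MSTN probe set, Ssc.23498.1.S1_s_at, gave nearly the same profile. It read 3.83, 10.06 and 8.47 in Large White and 9.06, 9.12 and 7.96 in Northeastern Indigenous boars. After each was centred on its own mean, the MSTN probe sets differed by a root mean square of 0.16 log2 units over the 6 arrays. Both placed Northeastern Indigenous replicate 3 below the other arrays of its breed, at -1.22 and -1.12 relative to their mean. Probe sets of 1 gene can share sequence and were read from the same RNA, so they are not independent replicates of the animals.

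Between the breeds, the mean of MSTN was 8.81 ± 0.70 in Northeastern Indigenous and 7.38 ± 3.22 in Large White boars (SD, n = 3 per breed). The difference of 1.43 ± 1.45 (SE) had a 95% confidence interval from -1.98 to 4.83 (limma adjusted p = 0.558), and that of the second probe set was 1.26 ± 1.45 (limma adjusted p = 0.607). An exact permutation test over the 6 arrays gave p = 0.8, two-sided, where 0.1 is the smallest p this design allows. One array set the direction: without Large White replicate 1 the difference was -0.41 (limma adjusted p = 0.760), and without Large White replicate 2 it was 2.63 (0.158). Relative to the Northeastern Indigenous mean, MSTN stood at -5.09 on Large White replicate 1, where the sarcomere list stood at -3.57. On Large White replicate 2, where that list stood at 0.0027, MSTN stood at 0.98. The part of the muscle and fat markers in these values was not tested.

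MYOD1, the myogenic transcription factor, varied widely among Large White boars and, in its brightest probe set, varied little among Northeastern Indigenous boars. Its brightest probe set, Ssc.22906.1.A1_at, read 8.31, 8.51 and 8.44 on the 3 Northeastern Indigenous arrays. On Large White replicates 1, 2 and 3 it read 4.62, 9.76 and 7.31. All 3 Northeastern Indigenous values fell in the gap between Large White replicate 3 and Large White replicate 2. The SD was 0.10 in Northeastern Indigenous and 2.57 in Large White boars. A larger SD in Large White was the rule on these arrays, since it held for 71.7% of all tested probe sets and for 12 of the 14 tested member probe sets.

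SscAffx.10.1.S1_at, the dimmer MYOD1 probe set, kept the same order of the Large White arrays with 0.94, 7.89 and 5.89. In Northeastern Indigenous boars it read 7.13, 7.33 and 6.47, with an SD of 0.45 where that of the brighter probe set was 0.10. Its value on Large White replicate 1 was at the 3.0th percentile of that array, too dim to be read as more than a low signal. The MYOD1 profiles differed by a root mean square of 0.86 log2 units after centring.

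The breed difference of MYOD1 was 1.19 ± 1.14 (SE) for the brighter probe set, with a 95% confidence interval from -1.49 to 3.86 (limma adjusted p = 0.534), and 2.06 ± 1.595 for the dimmer one (0.450). The dimmer one was at 0.080 without Large White replicate 1 and at 3.56 without replicate 2. The exact permutation p was 0.7 for the brighter probe set. Without Large White replicate 1 the difference was -0.12 (limma adjusted p = 0.952). Without Large White replicate 2 it was 2.45 and was called (limma adjusted p = 0.041), in a fit that called 30.7% of all probe sets and 4 of the 14 members. Beside the markers, MYOD1 stood at -3.80 and -1.11 relative to the Northeastern Indigenous mean on Large White replicates 1 and 3, where the sarcomere list stood at -3.57 and -0.43, and at 1.35 on replicate 2. The part of the muscle markers in these values was not tested.

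**Figure D2:**
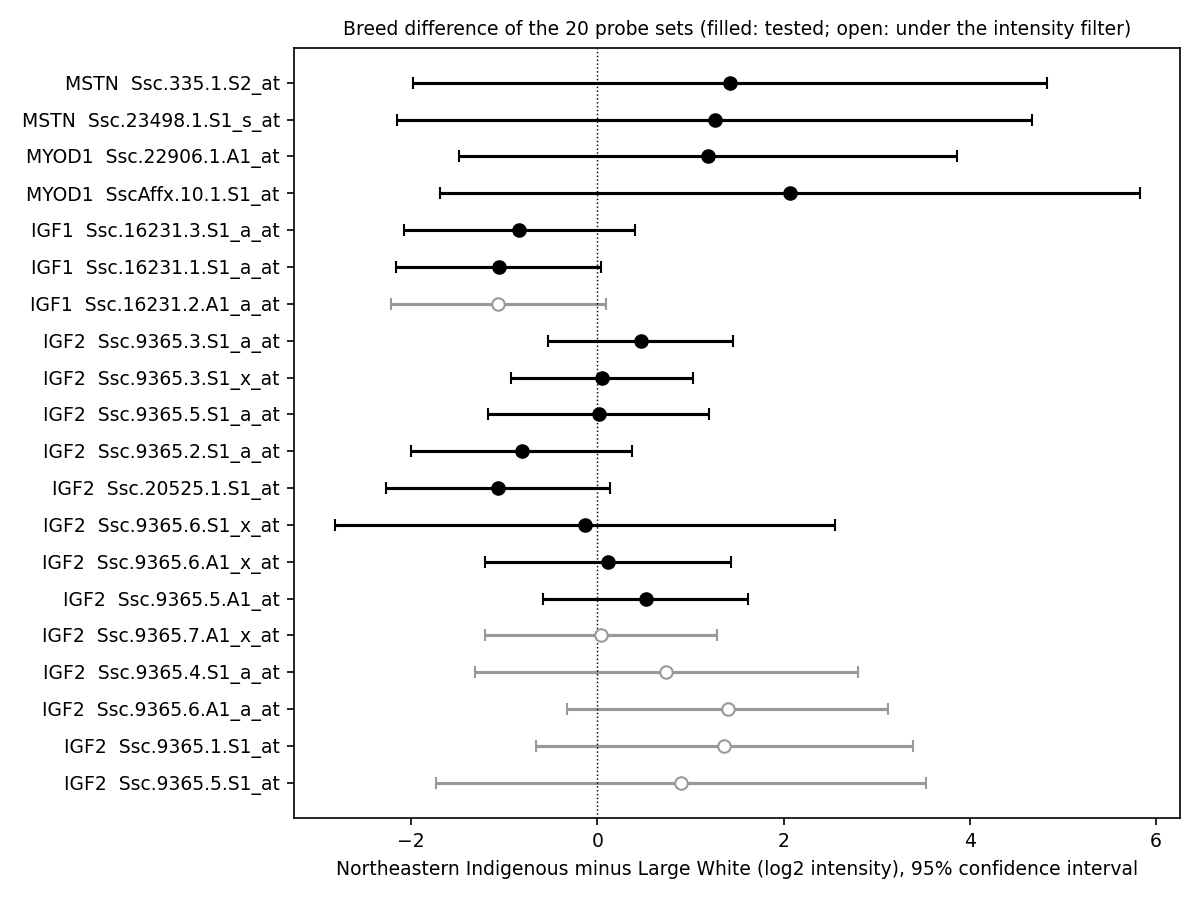
Difference between the breeds (horizontal axis, Northeastern Indigenous minus Large White, log2 intensity) for the 20 probe sets, with 95% confidence intervals from limma. Filled points passed the intensity filter and open points did not; all 20 intervals include 0, and the IGF2 probe sets fall on both sides of it.

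IGF1, the growth factor that acts through IGF1R, was brighter on Large White replicates 1 and 3 than on the other 4 arrays in all of its 3 probe sets. The brightest, Ssc.16231.3.S1_a_at, read 9.44, 7.57 and 9.13 on Large White replicates 1, 2 and 3 and 7.87, 8.33 and 7.41 on the Northeastern Indigenous arrays. Ssc.16231.1.S1_a_at read 8.32, 6.73 and 7.63 against 6.58, 6.92 and 6.003. The ending "_a" marks probe sets designed to recognize several transcripts of 1 gene. Large White replicate 2 lay inside the Northeastern Indigenous range in both.

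The dimmest IGF1 probe set, Ssc.16231.2.A1_a_at, was too dim to pass the filter. It read 6.64, 5.30 and 6.12 in Large White and 5.10, 4.88 and 4.88 in Northeastern Indigenous boars. This was the 1 member probe set of 20 in which the breeds did not overlap, against 20.7% of all probe sets without the filter. The gap between the lowest Large White and the highest Northeastern Indigenous array was the distance from 5.30 to 5.10.

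IGF1 had negative differences between the breeds in all 3 probe sets, of similar size. They were -0.84 ± 0.53 (SE; 95% confidence interval from -2.08 to 0.40; limma adjusted p = 0.371), -1.06 ± 0.47 (limma adjusted p = 0.272) and, without the filter, -1.06 ± 0.49 (limma adjusted p = 0.357). None passed the threshold. The exact permutation p of the brightest was 0.3. Leaving out 1 array kept the sign of the brightest, from -1.41 without Large White replicate 2 (limma adjusted p = 0.021) to -0.48 without Large White replicate 1 (0.714). Both tested IGF1 probe sets were among the 4 of 14 members called without Large White replicate 2, beside 30.7% of all tested probe sets. Set against Large White replicate 2 by itself, the Northeastern Indigenous mean differed by 0.31 in the brightest probe set and by -0.23 and -0.34 in the others.

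Markers of some other cell types moved with IGF1. On Large White replicates 1 and 3 IGF1 stood at 1.57 and 1.26 relative to the mean of the other breed. The leukocyte list lay at 2.31 and 2.23 and the fibroblast and matrix list at 2.02 and 2.16 on the same arrays. The adipocyte list lay at 3.50 and 2.03 there. The endothelium list, with 10 of 12 genes on the array and 7 past the filter, did not move with IGF1. It lay at -0.41 and -0.22 on Large White replicates 1 and 3. CD163, a macrophage receptor, read 10.43, 8.57 and 10.33 in Large White and 7.79 to 8.29 in Northeastern Indigenous boars. The part of these cells in the IGF1 signal was not tested.

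**Figure D3:**
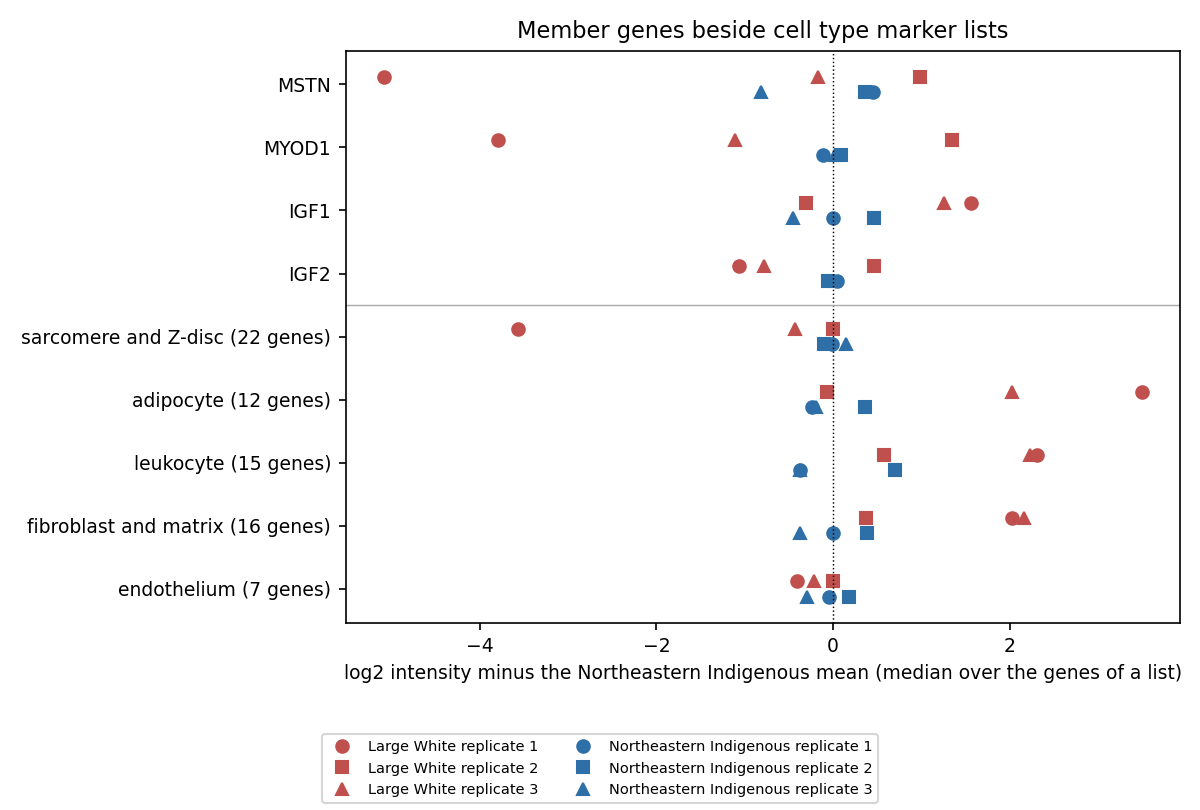
Log2 intensity on each array minus the Northeastern Indigenous mean (horizontal axis) for the brightest probe set of each gene and, below the line, for the median of 5 marker lists. MSTN and MYOD1 lie far left on Large White replicate 1 together with the sarcomere list, IGF1 lies right on Large White replicates 1 and 3 together with the adipocyte, leukocyte and fibroblast lists, and Large White replicate 2 stays near 0 for the sarcomere and adipocyte lists.

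IGF2, the imprinted growth factor, was represented by 13 probe sets that did not tell 1 story. Of these, 8 passed the filter, and among the 8 the breed difference was positive in 5 and negative in 3, from -1.07 to 0.52. Over all 13 it was positive in 10 and negative in 3, and the 5 probe sets under the filter ran up to 1.40. None was called (limma adjusted p from 0.291 to 0.988). Ssc.9365.3.S1_a_at, the brightest, read 8.95, 10.48 and 9.24 on Large White replicates 1, 2 and 3 and 10.07, 9.97 and 10.03 on the Northeastern Indigenous arrays. As with the brightest MYOD1 probe set, the 3 Northeastern Indigenous values lay close together and inside the Large White range. Its difference was 0.46 ± 0.42 (SE; 95% confidence interval from -0.53 to 1.45; limma adjusted p = 0.515; exact permutation p = 0.4).

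Ssc.20525.1.S1_at, annotated through another accession than the other IGF2 probe sets, gave the most negative difference. It read 8.56, 10.11 and 8.21 in Large White and 7.76, 8.26 and 7.65 in Northeastern Indigenous boars. The breeds overlapped through Large White replicate 3, which read slightly lower than Northeastern Indigenous replicate 2. The difference was -1.07 ± 0.51 (SE; limma adjusted p = 0.291). Ssc.9365.2.S1_a_at also had a negative difference, -0.82 ± 0.50 (limma adjusted p = 0.366), with 8.32, 10.14 and 8.59 against 8.32, 8.48 and 7.79. Centred on their own means, these probe sets differed from the brightest by a root mean square of 0.82 and 0.68.

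What most IGF2 probe sets shared was a high value on Large White replicate 2. That array was the brightest of the 6 in 9 of 13 probe sets, and in 7 of the 8 tested, against 18.1% of all tested probe sets. It lay above the Northeastern Indigenous mean by 0.46 in the brightest probe set, by 2.22 in Ssc.20525.1.S1_at and by 2.76 in Ssc.9365.6.S1_x_at, whose ending "_x" marks probes that can also match other sequences. In Ssc.9365.6.A1_x_at it was level with Northeastern Indigenous replicate 1 to 2 decimals, at 7.30. The exception among the 8 was Ssc.9365.5.A1_at, which read 5.60, 5.94 and 6.34 in Large White and 7.28, 5.79 and 6.37 in Northeastern Indigenous boars.

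Leaving out Large White replicate 2 moved the brightest IGF2 probe set to 0.93, which was called (limma adjusted p = 0.026). That fit called 30.7% of all tested probe sets, and none of the other IGF2 probe sets. Among these, Ssc.9365.3.S1_x_at was at 0.50 (limma adjusted p = 0.135). Leaving out Large White replicate 1 moved the brightest IGF2 probe set to 0.16 (limma adjusted p = 0.888). The most negative probe set, Ssc.20525.1.S1_at, stayed below 0 whichever array was left out, from -1.45 to -0.50. A single boar cannot show how its breed differs from the other, so the values on Large White replicate 2 describe that animal.

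**Figure D4:**
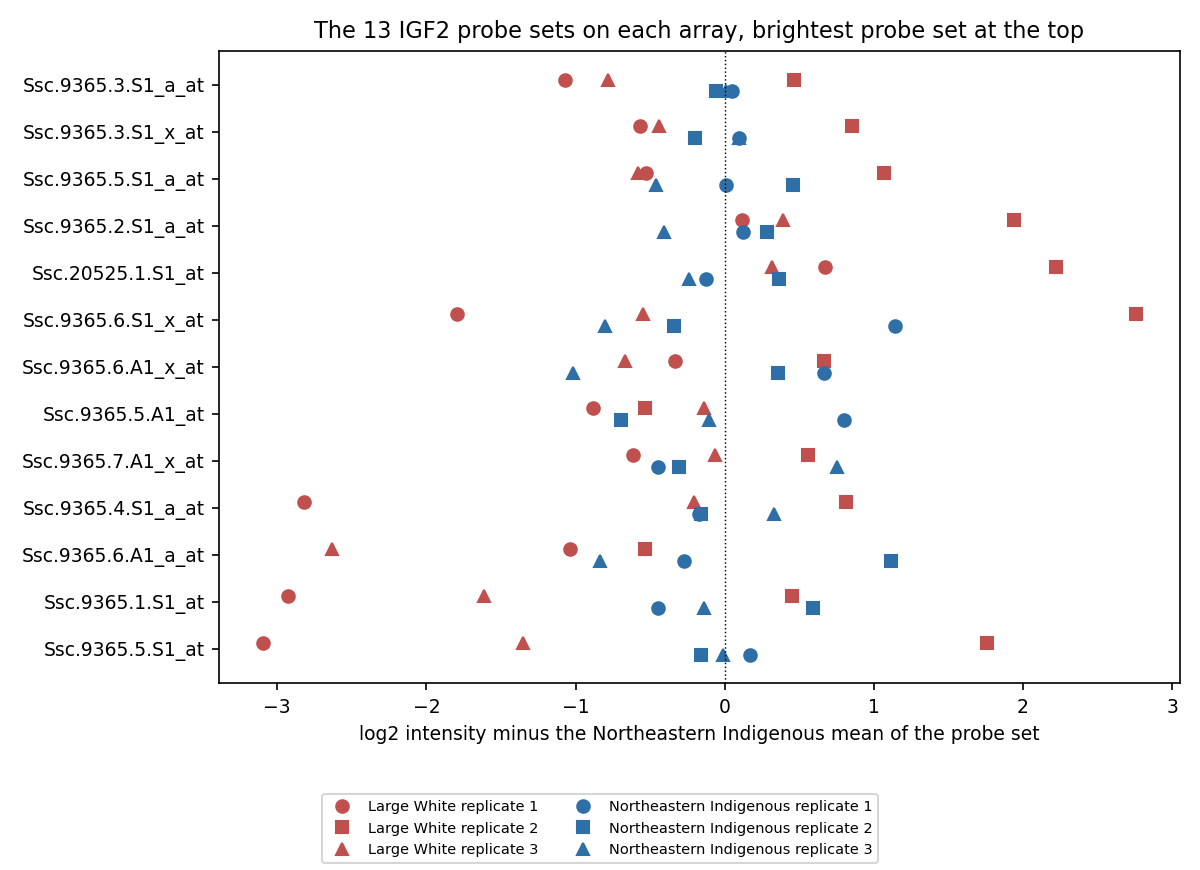
Log2 intensity of the 13 IGF2 probe sets on each array minus the Northeastern Indigenous mean of the same probe set (horizontal axis), ordered from the brightest probe set to the dimmest. The red squares, Large White replicate 2, are rightmost in 9 rows, while the red circles and triangles, replicates 1 and 3, lie on either side of 0 depending on the probe set.

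Large White replicate 2 also stood high for the other muscle genes of the 4. It lay above all 3 Northeastern Indigenous arrays in 11 of the 14 tested member probe sets, against 29.2% of all tested probe sets. These were 2 of 2 for MSTN, 2 of 2 for MYOD1, 7 of 8 for IGF2 and 0 of 2 for IGF1. Probe sets of the same gene are not independent, so these counts describe 4 genes on a single array. Large White replicate 1 was the dimmest array in 8 of the 14, against 31.1%. Those 8 were both MSTN, both MYOD1 and 4 IGF2 probe sets.

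The genes around MSTN had mostly negative differences, 11 of them against 3 positive, where 54.7% of named genes were higher in Northeastern Indigenous boars. Of 36 listed genes of the myostatin and activin pathway, 14 were tested and 0 were called, against 0% of all 5438 named genes. At an unadjusted p under 0.05 1 was higher and 6 were lower, where 9.42% of named genes were higher and 11.4% lower. The median difference was -0.55 (-0.18 without Northeastern Indigenous replicate 3) beside 0.090 over all named genes, and the breeds did not overlap in 6 of 14, beside 28.3%.

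Among the ligands, TGFB3 and TGFB2, relatives of myostatin, differed by -2.99 ± 0.87 and -0.86 ± 0.29 (SE). TGFB3 read 8.88, 6.85 and 8.93 in Large White and 3.59, 6.52 and 5.56 in Northeastern Indigenous boars. A further TGFB2 probe set had a difference of the opposite sign. INHBA, a subunit of activin A, lay the other way at 0.52 ± 0.22. TGFB1 was at 0.10 ± 0.45 and changed sign with 1 array left out, from -0.25 to 0.34.

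The processing protease BMP1, which frees myostatin from its propeptide, differed by -1.28 ± 0.33, with 8.18, 7.13 and 7.62 against 6.31, 6.33 and 6.46. Of the receptors, TGFBR1 (-0.77 ± 0.24) and ACVR2A (-0.63 ± 0.50) had negative differences and ACVR1B a positive one (0.87 ± 0.70). ACVR2A read 4.71 on Northeastern Indigenous replicate 3 and 6.17 to 6.50 on all other arrays, and without that replicate its difference was -0.12. ACVR1B, a type I receptor for activin and myostatin, read 7.04, 10.005 and 8.54 in Large White, in the order of MSTN itself, and 9.50, 9.75 and 8.96 in Northeastern Indigenous boars. SMAD4, the shared signal carrier, was at -0.096 ± 0.26, and ran from -0.25 to 0.012 with 1 array left out.

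Proteins that bind and hold back myostatin or related ligands were measured too. DCN, a matrix proteoglycan, differed by -0.89 ± 0.34, FST, the activin and myostatin antagonist follistatin, by -0.39 ± 0.46, and FSTL3 by -0.037 ± 0.26. With 1 array left out FSTL3 changed sign, from -0.18 to 0.11, and FST was at -0.038 without Large White replicate 2. DCN, BMP1 and the TGF-betas are made in connective tissue too. The fibroblast and matrix list, which shares FBN1 with the pathway list, stood at 2.02 and 2.16 on Large White replicates 1 and 3 and at 0.37 on replicate 2, and its part in these differences was not tested. On Large White replicate 2 by itself, 12 of the 14 pathway genes were above the Northeastern Indigenous mean, beside 2747 of all 5438 named genes. The listed genes ACVR2B, SMAD3 and GDF11 were under the filter.

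Of the partners of MYOD1, 6 of 11 were dimmest on Large White replicate 1, as MYOD1 was, while ID1 and ID3 were brightest there. Of 38 listed myogenic factors and partners, 11 were tested and 0 were called, with 0 at an unadjusted p under 0.05, beside 20.8% of all named genes. The breeds did not overlap in 2 of 11, beside 28.3%. The median difference was 0.77, with 7 higher and 4 lower, but it was 0.15 without Large White replicate 1, 1.29 without replicate 2 and -0.031 without replicates 1 and 3. On Large White replicate 1 the list stood at -1.84 relative to the other breed, where the sarcomere list stood at -3.57, and the part of the muscle markers was not tested. MYF6, the myogenic factor most abundant in mature fibres, read 6.04, 10.92 and 9.39 in Large White and 10.95, 10.77 and 11.23 in Northeastern Indigenous boars, a difference of 2.20 ± 1.11 (SE). Unlike MYOD1, MYF6 was no brighter on Large White replicate 2 than in the other breed.

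Among cofactors of the MyoD family, the differences were positive for MEF2D at 1.01 ± 0.63 and MEF2A at 0.92 ± 0.44. MEF2A read 9.03, 10.76 and 10.04 against 10.96, 10.84 and 10.81, without overlap. TEAD4 (1.80 ± 0.79) and TEAD1 (1.15 ± 0.54), which bind the muscle CAT motif, had positive differences too. The inhibitors ID3, ID1 and ID4, which take E-proteins away from MYOD1, were at -0.63 ± 0.37, -0.18 ± 0.35 and -0.028 ± 0.30. Of these, ID1 and ID4 had no settled sign, running from -0.47 to 0.092 and from -0.18 to 0.19 with 1 array left out. CDKN1A, the cell-cycle inhibitor that MYOD1 induces during differentiation, was at -0.54 ± 0.35. It read 9.58, 9.80 and 9.54 against 8.41, 9.36 and 9.53, also without overlap. Without Northeastern Indigenous replicate 1 its difference was -0.20. MYF5 and ID2 were under the filter.

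The 21 tested genes of the 48 listed for the IGF and insulin axis went both ways, 11 higher and 10 lower, from -1.98 for IGFBP6 to 1.41 for GRB10. Their median was 0.052, and -0.098 without quantile normalization. None was called, and at an unadjusted p under 0.05 there were 0 higher and 1 lower, beside 9.42% and 11.4% of all named genes. That gene was IGFBP6, a binding protein with a preference for IGF2. It read 12.97, 10.94 and 12.90 in Large White and 10.12, 10.78 and 9.99 in Northeastern Indigenous boars, a difference of -1.98 ± 0.57 (SE), and the arrays high for it were those high for IGF1. The binding proteins IGFBP2 (-0.12 ± 0.31) and IGFBP5 (0.15 ± 0.43) overlapped between the breeds, and both changed sign with 1 array left out.

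Among the receptors, IGF1R was at -0.15 ± 0.56, IGF2R, which clears IGF2, at -0.10 ± 0.38 and INSR, the insulin receptor, at 0.33 ± 0.33. With 1 array left out IGF1R ran from -0.70, without Northeastern Indigenous replicate 3, to 0.32, without replicate 1 of that breed, and IGF2R from -0.28 to 0.18, so neither had a settled sign. GHR, the growth hormone receptor that drives IGF1 production, differed by -0.62 ± 0.46 through 1 array. It read 11.25 on Large White replicate 1 and 9.47 to 9.69 on the other 5 arrays, and without that array its difference was -0.086. Downstream, AKT1 was at 0.34 ± 0.31, FOXO1 at -0.068 ± 0.25 and TSC2 at -0.37 ± 0.31. Of these, FOXO1 changed sign with 1 array left out. The adaptors GRB10 and GRB2 were at 1.41 ± 0.73 and -0.21 ± 0.30, and STAT5B, a carrier of the growth hormone signal, at 0.64 ± 0.44. IRS1 and FOXO3 were under the filter.

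**Figure D5:**
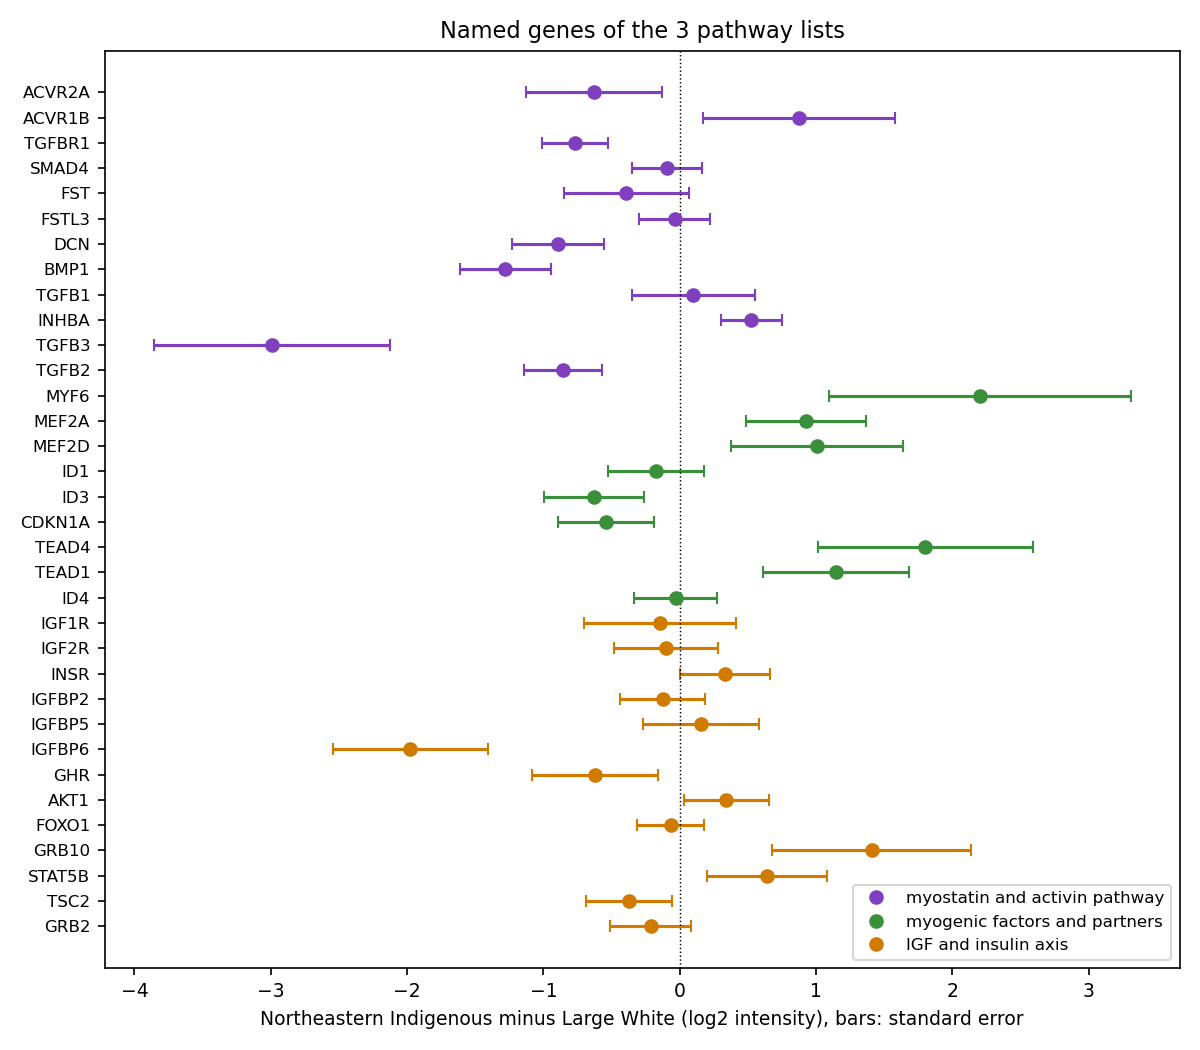
Difference between the breeds (horizontal axis, Northeastern Indigenous minus Large White, log2 intensity, bars show the SE) for the 34 named genes of the 3 pathway lists. TGFB3 and IGFBP6 lie farthest left and MYF6 farthest right, and genes of the IGF and insulin axis lie on both sides of 0.

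The genes with the most similar 6-array profile were found for the brightest probe set of each member. The measure was the root mean square difference of the profiles after each was centred on its own mean, over 6 arrays and all other named genes tested. For MSTN they were EGF (0.44), ITGB1BP2 (0.45), RAMP1 (0.46), ADSSL1 (0.47) and RRAD (0.47), where the median named gene stood at 2.05. For MYOD1 they were TRIM55 (0.20), PKNOX2 (0.34), PDE4C (0.34), LRRFIP1 (0.38) and PEBP4 (0.38). TRIM55, a ubiquitin ligase of the sarcomere, read 6.16, 11.30 and 8.85 in Large White and 9.36, 9.78 and 9.60 in Northeastern Indigenous boars, which repeats the order of MYOD1 on all 6 arrays.

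PIK3AP1 (0.10), QSOX1 (0.12), GALNT7 (0.12), CMTM7 (0.12) and LPAR6 (0.14) were nearest to IGF1. STK11 (0.063), MARK3 (0.091), SGTA (0.092), WDR13 (0.10) and MAP2K2 (0.10) were nearest to IGF2. Without quantile normalization 4 of the 5 stayed nearest for MSTN and for IGF1, but 1 of the 5 for MYOD1 and for IGF2. Over all alternative settings for which this was repeated, fewer than 4 of the 5 stayed nearest in 8 of 20 comparisons.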

How the data were processed

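The values deposited by the authors are intensities on a linear scale, unit read from the values; the software that made it is not given in the sources used here, and the precision is limited by the 6 arrays. Of 24123 probe sets, 124 controls were left out. Names came from the platform annotation, where 10069 probe sets had 1 symbol, 198 several and 13732 none; 9961 gene identifiers matched the RefSeq table of Sscrofa11.1 and changed 0 symbols. No genome build or sequence was used. Deposited array medians spanned 0.35 log2 units, and arrays were quantile normalized. Probe sets whose mean log2 value fell under the 40th percentile were not tested. Fits used limma 3.58.1 in R 4.3.3 (lmFit, eBayes with an intensity trend, two-sided, 4 residual degrees of freedom) and were tested on simulated data. Animals sharing a replicate number were not treated as pairs. A gene of a list was represented by its brightest tested probe set. Members, lists and alternatives were chosen with earlier results of these data known. The named genes are all member probe sets, fixed core genes of 3 pathway lists, up to 2 more per list and direction by smallest unadjusted p, and the 5 nearest profiles of each member.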

Additional observations from a re-analysis of the deposited data

How the results depend on the processing

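None of the 4 genes was called under any alternative that used all 6 arrays. The members called came to 0 with the replicate block too, which left the differences at 1.43 for MSTN, 1.19 for MYOD1, -0.84 for IGF1 and 0.46 for IGF2; deviations of same-numbered animals correlated at -0.16 to -0.024, so the numbers were not taken as pairs. Leaving out 1 array gave 0 to 4 members and 0 to 4421 probe sets called, the high ends both without Large White replicate 2. Median centring, the adipocyte minus sarcomere covariate and averaging the probe sets of each gene called 1 probe set or gene each, in place of 0.

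Leaving out Large White replicates 1 and 3 together reversed the sign of 13 of the 20 member probe sets and kept that of 7, among them 2 of 3 for IGF1 (-0.23 and -0.34) and, for IGF2, Ssc.20525.1.S1_at (-2.22) and Ssc.9365.2.S1_a_at (-1.94). Without both, which leaves 1 Large White array assumed to vary like the other breed, the differences of the brightest probe sets were -0.98 for MSTN, -1.35 for MYOD1, 0.31 for IGF1 and -0.46 for IGF2. The covariate gave -1.50, -1.23, 0.056 and -0.23. Subtracting the array's sarcomere median gave 0.19 for MSTN, -0.044 for MYOD1, -2.07 for IGF1 and -0.77 for IGF2. The cause of these reversals was not tested.

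Other member probe sets reversed as well. Without both arrays the second MSTN probe set was at -1.35 and the second MYOD1 probe set at -0.92, and with the covariate at -1.71 and -1.25. For IGF2, without both arrays, Ssc.9365.3.S1_x_at, Ssc.9365.5.S1_a_at, Ssc.9365.6.A1_x_at, Ssc.9365.7.A1_x_at, Ssc.9365.4.S1_a_at, Ssc.9365.1.S1_at and Ssc.9365.5.S1_at gave -0.85, -1.07, -0.66, -0.56, -0.81, -0.45 and -1.76. With the covariate the same probe sets gave -0.60, -0.62, -0.24, -0.56, -1.05, -0.14 and -1.36. With the sarcomere median subtracted, Ssc.9365.3.S1_x_at, Ssc.9365.5.S1_a_at, Ssc.9365.6.A1_x_at, Ssc.9365.5.A1_at, Ssc.9365.7.A1_x_at, Ssc.9365.4.S1_a_at and Ssc.9365.5.S1_at gave -1.18, -1.22, -1.12, -0.71, -1.19, -0.49 and -0.33. Without quantile normalization Ssc.9365.3.S1_x_at and Ssc.9365.5.S1_a_at were at -0.14 and -0.18, and with median centring the latter was at -0.039.

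Leaving out 1 array gave -0.41 to 2.63 for MSTN (-0.55 to 2.56 for its second probe set), -0.12 to 2.45 for MYOD1, -1.41 to -0.48 for IGF1 and 0.16 to 0.93 for IGF2. It gave -0.21 to 0.50 for Ssc.9365.3.S1_x_at, -0.27 to 0.55 for Ssc.9365.5.S1_a_at, -1.10 to 1.17 for Ssc.9365.6.S1_x_at, -0.22 to 0.62 for Ssc.9365.6.A1_x_at, -0.34 to 0.34 for Ssc.9365.7.A1_x_at, -0.30 to 1.51 for Ssc.9365.4.S1_a_at and -0.20 to 2.22 for Ssc.9365.5.S1_at.

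The settings for the pathway lists were chosen after seeing the data. The myostatin list's median ran from -0.76 to -0.18 with 1 array left out, the upper end without Northeastern Indigenous replicate 3. The myogenic list's median was -0.031 without Large White replicates 1 and 3 and -0.065 with the covariate. The IGF list's median ran from -0.069 to 0.090 with 1 array left out, and was -0.098 without quantile normalization, 0.14 without the filter, -0.068 under the 60th percentile filter and -0.024 without Large White replicates 1 and 3.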
